A study of Mus musculus with 2 samples.

Results

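The genes described here are 33 genes of the p53 pathway in mouse bone marrow stromal cells, namely p53 itself, the Ink4/Arf inhibitors, the p53 antagonists Mdm2 and Mdm4, and direct p53 targets that act in cell cycle arrest, apoptosis and DNA repair. They were taken from the array table by gene symbol and are 33 of 20706 genes read by a probe set of their own. The list was chosen from values of the same pair of arrays, after the differences of *Cdkn2a*, *Mdm2* and several targets between the lines were known, so every value below is a description and not a test. BMSCs-adipo and BMSCs-osteo are clonal stromal lines that immortalized spontaneously and differ in whether they form adipocytes or osteoblasts. Both came from C57BL/6 mice that carried a Beta-actin-GFP transgene and were ApoE(-/-), and both were grown in the same basal medium with 12% FBS, without a differentiation stimulus. RNA of 3 cultures was pooled for each line and read on 1 array. Each line is a single clone, so a difference between the lines cannot be told apart from a difference between clones.

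In unstressed cells p53 is kept low by Mdm2, a ubiquitin ligase that marks it for degradation, together with the related protein Mdm4. The *Cdkn2a* locus encodes p16Ink4a, which inhibits the kinases Cdk4 and Cdk6, and p19Arf, which binds Mdm2 and thereby frees p53. Active p53 switches on p21 (*Cdkn1a*) and other brakes on growth, genes of the death receptor and mitochondrial routes of apoptosis, DNA repair enzymes and its own inhibitor *Mdm2*. Mouse cells that grow without limit in culture are known to have commonly lost either Arf or p53 function, which is why this pathway is of interest in spontaneously immortalized lines.

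A short stretch of promoter is shown for genes that the values below turn on. Of the 33 genes, 25 had a promoter window in RefSeq (build GRCm38.p6), from 250 bases before to 50 bases after a transcript start. The windows were searched for the p53 half-site consensus of 10 bases, in which purines, a C, bases A or T, a G and pyrimidines follow each other. It equals its own reverse complement, so both strands are covered. At least 1 half-site lay in a window of 10 of the 25 genes (40.0%), and 9.55% of all 27025 genes with a window held one. Capitals mark the half-site, and each stretch ends before the start of the transcript whose window it is from.

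Ccng1, chr11:40755442-40755491, minus strand: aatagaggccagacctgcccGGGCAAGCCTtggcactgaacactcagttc
Mdm2, chr10:117710915-117710964, minus strand: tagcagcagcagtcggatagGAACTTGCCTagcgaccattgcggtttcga
Ddit4l, chr3:137623562-137623611, plus strand: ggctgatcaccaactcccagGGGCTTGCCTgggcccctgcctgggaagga
Bax, chr7:45467070-45467119, minus strand: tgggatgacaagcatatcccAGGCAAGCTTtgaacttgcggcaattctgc
Cdkn1a, chr17:29090908-29090957, plus strand: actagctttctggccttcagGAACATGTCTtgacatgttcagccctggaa
Trp53, chr11:69580264-69580313, plus strand: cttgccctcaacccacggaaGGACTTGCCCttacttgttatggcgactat

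*Aen*, *Ei24*, *Polk* and *Sesn1* also held a half-site. No half-site was found in the windows of *Eda2r*, *Dcxr*, *Fas*, *Phlda3*, *Ercc5*, *Gdf15* or *Btg2*, all of which were 2-fold higher in BMSCs-adipo. All genes with a half-site except *Cdkn1a* and *Trp53* were 2-fold higher in BMSCs-adipo. Windows without a half-site also belonged to *Apaf1*, *Bbc3*, *Cdkn2b*, *Mdm4*, *Plk3* and *Trp73*, which lay within 2-fold. So did those of *Cdkn2a* and *Plk2*, which were 2-fold higher in BMSCs-osteo. A relation between half-sites and differences was not tested. Matches in these windows describe letters only, and many p53 sites are known to lie outside such windows.

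The 33 genes were read by 66 probe sets, and none of these named a second gene. The authors' deposited values are log2 levels made by robust multiarray averaging (RMA), which normalizes between arrays. Each gene is given by its brightest probe set, taken over both arrays. It was counted when its mean level reached 4.20, the 30th percentile of all genes, which 32 of the 33 genes did, and all 32 exceeded it on both arrays. Differences are BMSCs-adipo minus BMSCs-osteo on the log2 scale, so that 1 stands for 2-fold, and a gene is called 2-fold higher in a line when it reached that size. Where a pair of levels is given, BMSCs-adipo comes first. With 1 array per line there was no replicate error and no p-value. The SD among probe sets that read 1 gene, 0.399 over all genes, gives a scale for probe effects only. The lines carried their labelled markers. The adipocyte genes *Adipoq*, *Pparg*, *Cebpa*, *Fabp4* and *Lpl* had levels of 9.31 to 13.26 in BMSCs-adipo and 3.16 to 7.72 in BMSCs-osteo. Of 7 osteoblast genes, 6 were 2-fold higher in BMSCs-osteo, and *Runx2* was similar (10.44 and 10.16). *Apoe* lay below the filter on both arrays. Of the blood cell markers, *Ptprc*, which defines the lineage, had levels of 2.56 and 2.78, while the macrophage gene *Cd68* differed by 1.41 (5.40 and 3.99). The 6 blood cell markers, summed on the linear scale and returned to log2, came to 7.02 in BMSCs-adipo and 6.73 in BMSCs-osteo, and 4 endothelial markers to 6.45 and 6.52. The part of such cells in the differences below was not tested. *Pecam1*, which defines endothelium, was also low in both lines (3.45 and 3.37). Since each pool is bulk RNA, fewer cells that express a gene and less RNA per cell cannot be told apart.

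The 17 listed genes that were 2-fold higher in BMSCs-adipo all lay outside the group of p53 family and Ink4/Arf genes. Genes outside that group made up 28 of the 32 counted, and the group itself held 4, too few for its share to be compared. *Cdkn2a* was lower in BMSCs-adipo and *Trp53* lay within 2-fold. Further p53 targets outside the list, given at the end, stood on both sides. Of the 32 genes counted, 17 were 2-fold higher in BMSCs-adipo, beside 7.88% of all 14497 genes past the filter, and 2 were 2-fold higher in BMSCs-osteo, beside 6.68% of all genes. The remaining 13 lay within 2-fold. The median difference of the 32 genes was 1.05 and that of all genes was -0.03. In all, 27 differences were positive and 5 were negative, beside 6777 positive (46.7%) and 7453 negative of all 14497 genes. In 6 genes the excess in BMSCs-adipo reached 4-fold, a size at which all genes were not counted. Because this contrast was in view when the genes were listed, the shares are given side by side with nothing drawn from them. Just inside the 2-fold line stood *Aen* (1.03) and *Ei24* (1.07), and just outside it *Tnfrsf10b* (0.93) and *Apaf1* (0.86).

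**Figure D1:**
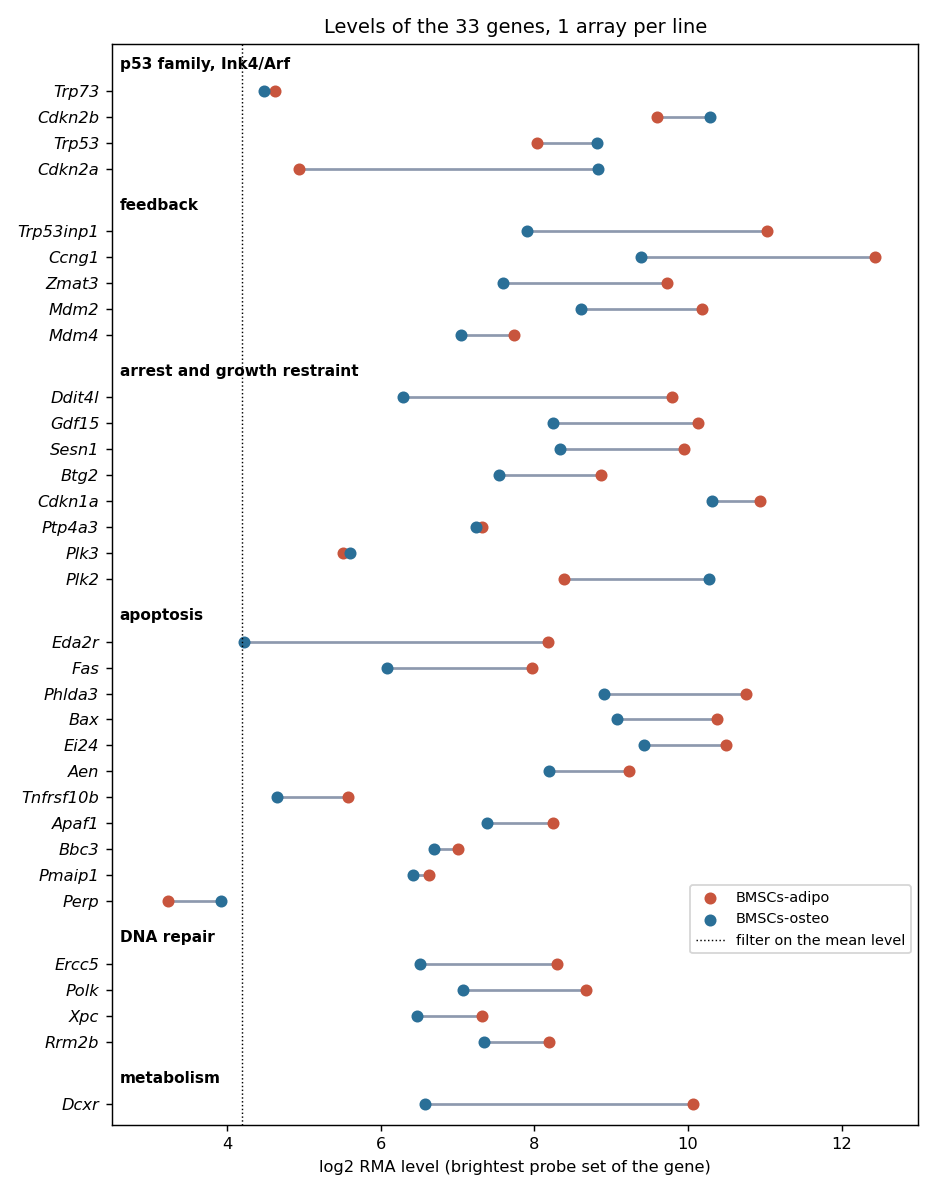
Log2 RMA levels of the 33 genes on the array of BMSCs-adipo (red) and of BMSCs-osteo (blue), 1 array each, grouped by role, with a dotted line at the filter level of 4.20. *Cdkn2a* (4.93 and 8.83) and *Eda2r* (8.18 and 4.22) stand apart in opposite directions, the latter with a value at the filter level.

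The log2 level of *Cdkn2a* was 4.93 for BMSCs-adipo and 8.83 for BMSCs-osteo. Their difference of -3.90 was 14.9-fold, the widest of the 33 genes toward BMSCs-osteo. Its level in BMSCs-adipo was not far above the filter level of 4.20, near the dim end of the array, whereas it was well read in BMSCs-osteo. The gene had a single probe set, so the p16Ink4a and p19Arf transcripts were not separated, and which of them it reads was not checked because probe sequences were not used here. *Cdkn2b*, which encodes the Cdk4 and Cdk6 inhibitor p15Ink4b and is the next gene on the chromosome, was read well in both lines. Its levels were 9.60 and 10.28, a difference of -0.68, within 2-fold.

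*Trp53* levels were 8.04 in BMSCs-adipo and 8.82 in BMSCs-osteo, a difference of -0.78 (1.72-fold). A second bright probe set gave -0.81, and a dimmer one past the filter gave -0.37. The 3 probe sets below the filter lay between -0.12 and 0.35. The mean over all 6 probe sets was -0.30. By its brightest probe set *Trp53* lay under the 2-fold rule, so it was not called different between the lines. *Trp73*, a p53 relative, was dim in both lines at 4.62 and 4.48.

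The genes on either side of these loci were compared next. None of the 16 nearest genes past the filter around *Cdkn2a* was 2-fold apart. Their differences ran from -0.84 to 0.66 with a median of -0.29, beside a median of -0.32 over all 863 genes of chromosome 4. With a filter at the 50th percentile the median of the 10 neighbours left was -0.70, and at a size rule of 1.5-fold 6 of the 16 were toward BMSCs-osteo and 1 toward BMSCs-adipo. *Mtap*, the nearest gene on the other side, which encodes a methionine salvage enzyme, had levels of 10.05 and 10.82 (-0.77).

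Around *Mdm2*, only *Dyrk2*, a kinase that phosphorylates p53 in human cells, passed 2-fold (1.04), and the median of its 16 neighbours was 0.06. *Cpsf6* and *Slc35e3*, the genes next to *Mdm2*, differed by -0.48 and 0.05. Around *Trp53*, *Cd68* was higher in BMSCs-adipo (1.41) and *Chd3os*, a transcript from the opposite strand of *Chd3*, was higher in BMSCs-osteo (-1.55). The adjacent genes *Wrap53* and *Atp1b2* differed by -0.20 and 0, and the median of the 16 neighbours was -0.05.

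**Figure D2:**
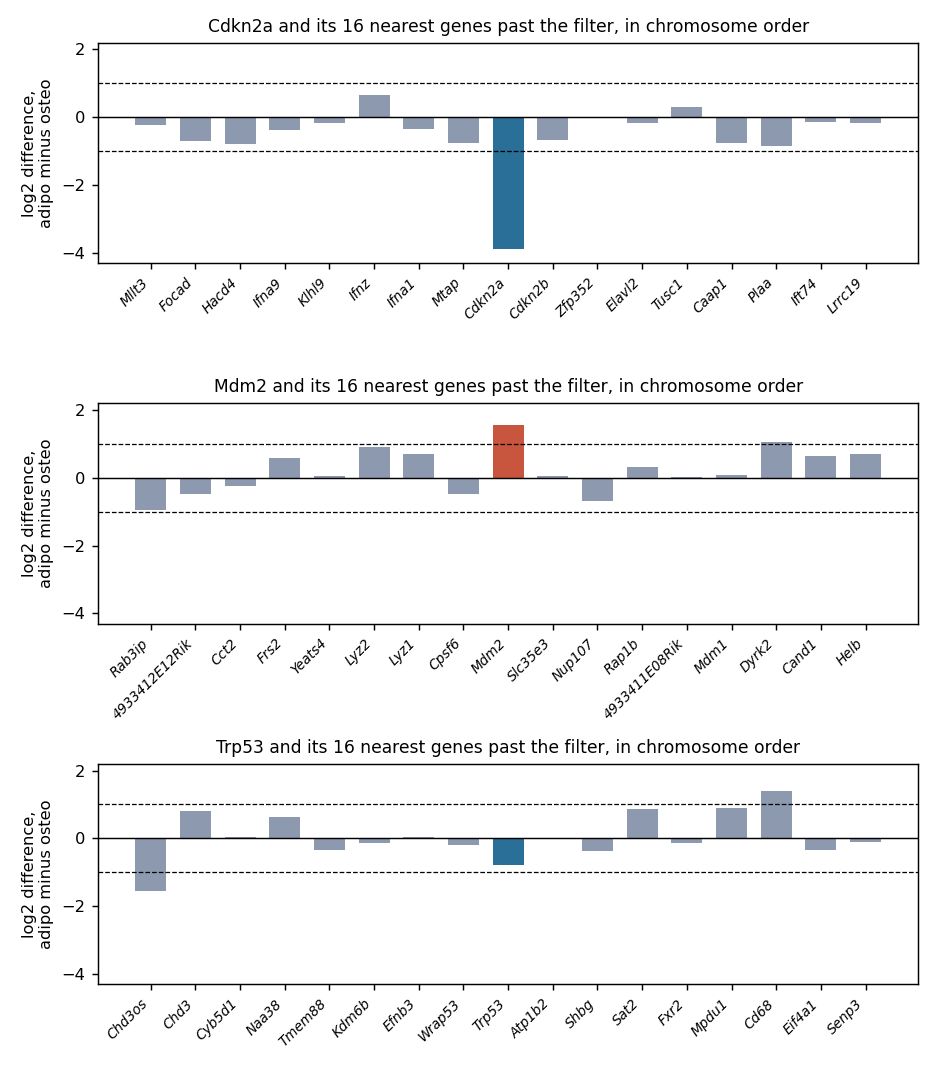
Log2 difference (BMSCs-adipo minus BMSCs-osteo, y axis) of *Cdkn2a*, *Mdm2* and *Trp53* (coloured bars) and of the 8 nearest genes past the filter on each side (grey), in chromosome order, with dashed lines at 2-fold. *Cdkn2a* at -3.90 stands between *Mtap* at -0.77 and *Cdkn2b* at -0.68.

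The feedback genes had the highest median of the role groups with several genes, 2.14, and 4 of 5 were 2-fold higher in BMSCs-adipo. *Mdm2* levels were 10.18 and 8.61, 2.97-fold apart. A second probe set gave 1.64, close to the 1.57 of the first, and a dim one below the filter gave 0.62. *Ccng1*, a p53 target whose product cyclin G1 brings a phosphatase to Mdm2, had levels of 12.44 and 9.39, 8.27-fold apart. Its 3 probe sets gave similar differences of 3.05, 3.10 and 3.30.

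*Trp53inp1*, a stress-induced nuclear protein that promotes p53 phosphorylation, had levels of 11.03 and 7.90 (3.13). Its dimmer probe set differed by 1.46, so the size of this difference depended on the probe set while its direction did not. *Zmat3*, an RNA-binding zinc finger protein, had levels of 9.73 and 7.59, 4.42-fold apart by its only probe set. *Mdm4* lay within 2-fold, at 7.73 and 7.04 (0.69). The other probe sets of *Mdm4* scattered about 0, from -0.20 to 0.20, and it was the only gene whose probe sets past the filter differed in sign.

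Genes of arrest and growth restraint were split. *Cdkn1a*, the p21 inhibitor of cyclin-dependent kinases and the classical readout of p53 activity, had levels of 10.93 and 10.31. The difference was 0.63 by 1 probe set and 0.54 by the other, 1.55-fold, and so below the size rule. *Ddit4l*, an inhibitor of mTOR signalling, differed far more, at 9.80 and 6.29 (11.3-fold), and its 3 probe sets gave 3.50, 3.67 and 4.01. *Sesn1*, a sestrin that restrains mTORC1, had levels of 9.95 and 8.33, with 1.61, 1.88 and 1.58 by its 3 bright probe sets.

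*Gdf15*, a secreted stress cytokine of the TGF-beta family, had levels of 10.13 and 8.24 (1.89), and *Btg2*, an antiproliferative protein, had 8.87 and 7.54 (1.33). *Plk2*, a polo-like kinase induced by stress, went the other way. Its levels were 8.38 and 10.27 (-1.88), and a second, dim probe set read 4.11 on both arrays. *Plk3*, a related kinase, and *Ptp4a3*, a phosphatase, differed by -0.09 and 0.09. Of these 8 genes, 4 were 2-fold higher in BMSCs-adipo and 1 in BMSCs-osteo, with a median of 0.98.

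In the apoptosis group 6 of 10 genes past the filter reached 2-fold toward BMSCs-adipo, with a median of 1.05. *Eda2r*, a receptor for ectodysplasin A2, had levels of 8.18 and 4.22 (3.96) by its only probe set. Its value in BMSCs-osteo lay at the filter level, so the size of the difference is uncertain. With an offset of 32 added before the log2 it was 2.67, less than that of *Dcxr* (3.11), *Ddit4l* (3.06), *Ccng1* (2.99) or *Trp53inp1* (2.97). *Fas*, the death receptor, had levels of 7.97 and 6.09 (1.89), and the TRAIL receptor *Tnfrsf10b* had 5.58 and 4.65 (0.93), with a second probe set at 1.12. In the mitochondrial route, *Bax*, which permeabilizes the outer membrane, had levels of 10.37 and 9.08 (1.30), and the apoptosome scaffold *Apaf1* had 8.25 and 7.38 (0.86).

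The BH3-only genes *Bbc3* (Puma) and *Pmaip1* (Noxa), direct triggers of that route, stood close together in the lines. *Bbc3* had levels of 7.00 and 6.70 (0.30) and *Pmaip1* of 6.63 and 6.42 (0.21). *Phlda3*, which opposes the survival kinase Akt, had 10.75 and 8.90 (1.85), the nuclease *Aen* 9.23 and 8.19 (1.03), and the endoplasmic reticulum protein *Ei24* 10.49 and 9.42 (1.07). Dimmer probe sets of *Aen* gave 1.08, 0.61 and 0.63, the latter pair under the 2-fold line. *Perp*, a membrane protein, was below the filter, at 3.23 and 3.91.

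Of the 4 DNA repair genes, *Ercc5* and *Polk* reached 2-fold toward BMSCs-adipo, and the median was 1.23. When probe sets were averaged, only *Polk* reached 2-fold. *Ercc5*, the XPG endonuclease of nucleotide excision repair, had levels of 8.30 and 6.51 (1.79) and a second, dim probe set at 0.04, with a mean of 0.92 over both. *Polk*, a DNA polymerase that copies past lesions, had 8.67 and 7.07 (1.60), with 1.11 by its second probe set. *Xpc*, which recognises damaged DNA, had 7.32 and 6.47 (0.86), and *Rrm2b*, the p53-induced ribonucleotide reductase subunit, had 8.19 and 7.34 (0.85), with 1.07 by another probe set. *Dcxr*, a reductase of dicarbonyls and L-xylulose, was the only metabolic target. Its levels were 10.07 and 6.58 (3.49, 11.2-fold).

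**Figure D3:**
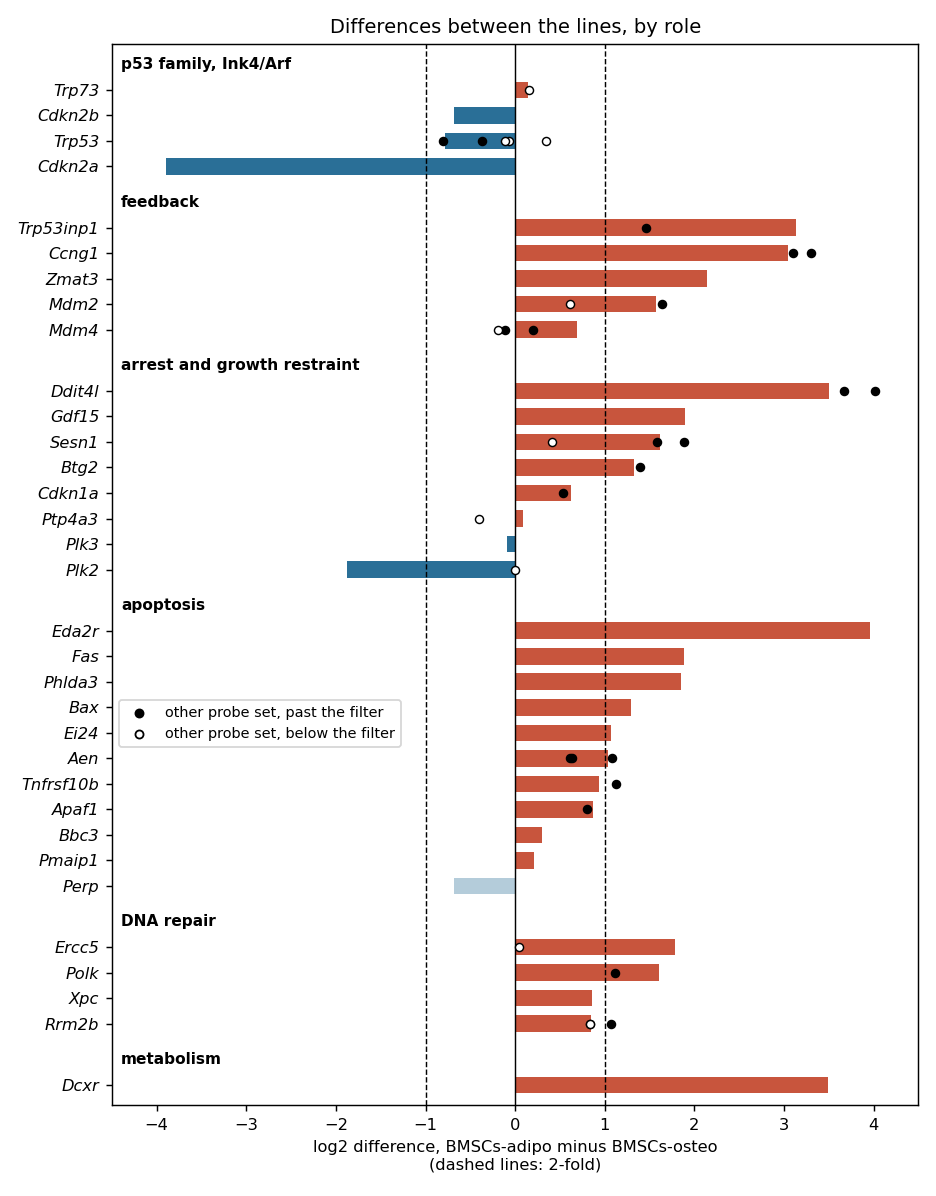
Log2 difference of each of the 33 genes (bars for the brightest probe set, red where higher in BMSCs-adipo and blue where lower, pale below the filter) and of its other probe sets (dots, open below the filter), grouped by role, with dashed lines at 2-fold. *Ccng1* and *Ddit4l* have dots close to their bars, while *Trp53inp1* has 1 dot at 1.46 beside a bar of 3.13.

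Of the 18 genes with several probe sets, 14 had more than 1 past the filter, and in 13 of these all differences shared a sign. The same count was not made over all genes, so nothing is drawn from it. The probe sets of *Mdm2*, *Btg2*, *Apaf1* and *Cdkn1a* past the filter lay within 0.10 of each other. Those of *Trp53inp1* lay 1.67 apart. The 33 genes are spread over 16 chromosomes, and chromosome medians of the difference ran from -0.35 (chromosome 18) to 0.41 (chromosome 8). *Gdf15* lies on chromosome 8 and differed by 1.48 after that median was subtracted. *Trp53inp1* lies on chromosome 4, where the median was -0.32, and stood farther apart after subtraction (3.45). In total 17 genes stayed 2-fold higher in BMSCs-adipo when each was set against its own chromosome. All genes were not recounted after this subtraction.

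**Figure D4:**
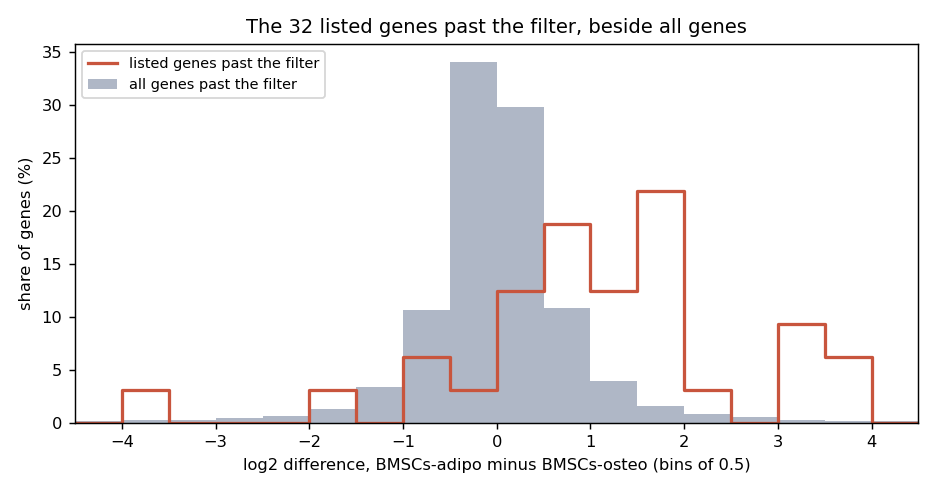
Share of genes (y axis, percent) by log2 difference in bins of 0.5, for all 14497 genes past the filter (grey) and the 32 listed genes past it (red line), shown between -4.5 and 4.5. The red line peaks at 21.9% between 1.5 and 2, where 1.62% of all genes lie.

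Other genes of the pathway, compiled by function with earlier results of these arrays known, were counted in the same way. Of 84 past the filter, 11 were 2-fold higher in BMSCs-adipo and 10 in BMSCs-osteo, with a median of -0.06. These are 13.1% and 11.9%, beside 7.88% and 6.68% of all genes, and the counts in the short lists below are few enough to be read only as the genes they name. Among 11 upstream kinases and partners only *Hipk2* was 2-fold apart, at 9.76 and 7.57 (2.19). It encodes the kinase that phosphorylates p53 together with the product of *Trp53inp1*. The damage kinases *Atm* (-0.52), *Atr* (-0.08), *Chek1* (-0.46) and *Chek2* (-0.40) lay within 2-fold. Of 7 other ligases and phosphatases that restrain p53, the ligase *Trim24* was just 2-fold higher in BMSCs-adipo (1.03). With chromosome medians subtracted, probe sets averaged or the offset of 32, no gene of this list was 2-fold higher in BMSCs-adipo. When probe sets were averaged, 1 of the 7 was 2-fold higher in BMSCs-osteo. *Ppm1d*, a phosphatase induced by p53, differed by 0.66.

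Further p53 targets stood on both sides. In the apoptosis list 4 of 10 were 2-fold higher in BMSCs-adipo and 0 in BMSCs-osteo. Among them were the inflammatory caspase *Casp1* (3.40), *Siva1* (1.53) and ferredoxin reductase *Fdxr* (1.33). *Casp1* had levels of 7.23 and 3.83, the latter below the filter level, so the size of its difference is uncertain. With the offset of 32, 2 of the 10 were 2-fold higher in BMSCs-adipo. In the list of arrest and growth, 3 of 16 were 2-fold higher in BMSCs-adipo, among them *Gtse1* (1.42). On the other side stood 5 of 16, among them *Rprm* (-2.02) and *Ier3* (-1.74). *Rprm* read 3.60 in BMSCs-adipo, below the filter level, so the size of its difference is uncertain. The count toward BMSCs-osteo depended on dim genes. With the offset of 32, 2 of the 16 were 2-fold higher in BMSCs-adipo and 2 in BMSCs-osteo. A filter at the 50th percentile left 12 genes, 3 of them 2-fold higher in BMSCs-adipo and 2 in BMSCs-osteo. *Gadd45a*, an arrest and repair gene, was nearly equal at 9.32 and 9.39. Among 8 repair targets, *Mgmt*, which removes alkyl groups from guanine, was higher in BMSCs-adipo (2.03), and *Gadd45g* was higher in BMSCs-osteo (-1.40).

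Of 12 Ink4 and Cip/Kip inhibitors and partners, *Trp63*, the remaining p53 relative, was higher in BMSCs-adipo, at 7.67 and 4.69 (2.97), and *Cdkn1c* (p57) was higher in BMSCs-osteo (-1.33). *Cdkn1c* read 3.82 in BMSCs-adipo, below the filter level. With the offset of 32, no gene of this list was 2-fold higher in BMSCs-osteo. The p16-related inhibitors *Cdkn2c* (0.72) and *Cdkn2d* (0.04), the p16 targets *Cdk4* (0.54) and *Cdk6* (-0.86) and the retinoblastoma gene *Rb1* (0.56) lay within 2-fold. None of the 7 other Bcl2 family genes was 2-fold apart. With chromosome medians subtracted, 2 of the 7 were 2-fold higher in BMSCs-adipo. Of 13 cell cycle genes that p53 and p21 repress, the mitotic genes *Ccnb2* (-1.40), *Aurka* (-1.28) and *Plk1* (-1.19) were 2-fold higher in BMSCs-osteo. The other 10 did not reach 2-fold, such as *Mki67* (-0.23), *Top2a* (-0.11) and *Cdk1* (-0.04). The difference was below 0 in all 13, beside 7453 of all 14497 genes. Their median of -0.68 became -0.42 when chromosome medians were subtracted. The part of these cell cycle values in the differences of the p53 targets was not tested.

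**Figure D5:**
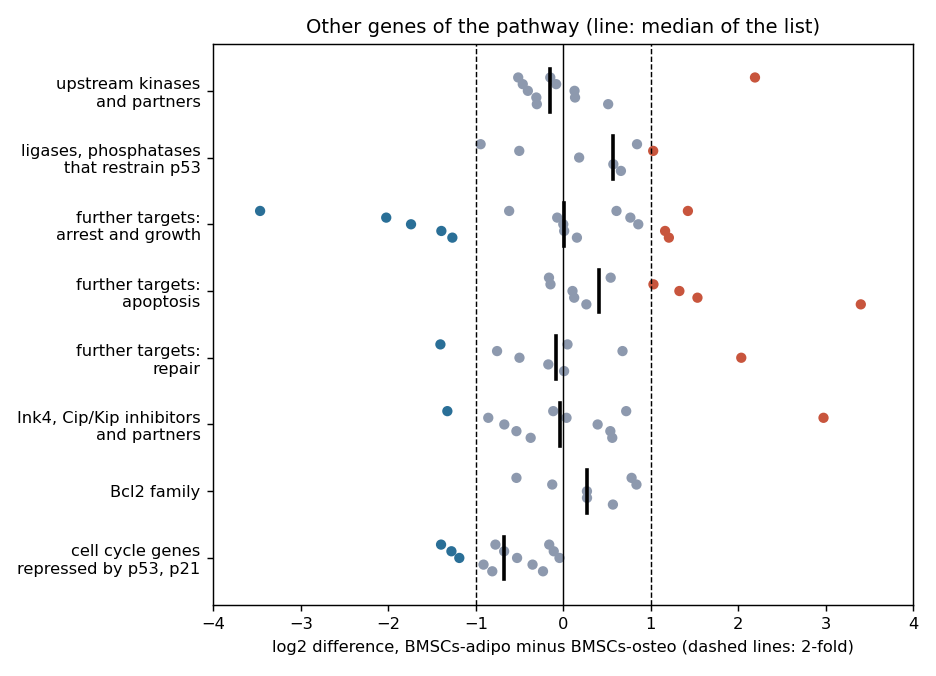
Log2 difference of 84 other pathway genes past the filter in 8 lists (points; red and blue 2-fold higher in BMSCs-adipo and BMSCs-osteo, vertical lines at the median of each list). *Casp1* (3.40), *Trp63* (2.97) and *Hipk2* (2.19) lie farthest right, *Casp1* with a BMSCs-osteo value below the filter level.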

How the data were processed

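Total RNA (8 ug) of 2 pools, 1 per line, was labelled with biotin and read on 1 Affymetrix mouse array each. The authors' deposited table holds log2 levels of 45101 probe sets made by RMA with oligo; versions and settings were not given in the sources read. Its column of the authors' own log2 ratios between the lines was not used. The series matrix held the same values (largest gap 0). Control probe sets (64) and those with no gene (5368) or several genes (1479) were left out, which left 38190 for 20706 genes. A gene took its brightest probe set by mean, and genes under the 30th percentile were left out of counts. Of the 14497 kept, 94.7% had a chromosome through the RefSeq table (GRCm38.p6). Array values carry no counts, so the number of arrays limits the precision. A 2-fold size rule stood in for a test. The list of 33 genes, their roles, the 90 further pathway genes and all rules were chosen with earlier results of these arrays known. Named were all 33 genes, up to 4 genes per further list with the largest differences of at least 2-fold, neighbours that were nearest or 2-fold apart, *Apoe* and cell type markers; some genes of the further lists are counted but not reported here by name. Other named genes, such as *Gadd45a*, *Atm*, *Cdk4*, *Ppm1d*, *Cdk1* or *Mki67*, were added for their known roles after their values were seen. Neighbours were the 8 nearest genes on each side in the RefSeq order. Alternatives were the mean of probe sets, other filters and size rules, an offset of 32, a loess curve (span 0.3) and subtraction of chromosome medians. Values counted as moved when a gene shifted by more than 0.399, a median by more than 0.399 over the root of its gene number, or a count beyond 1.5 times. The calculations were checked on simulated data and used Python 3.11.15, numpy 2.4.6, pandas 2.3.3, statsmodels 0.14.6 and matplotlib 3.10.9.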

Additional observations from a re-analysis of the deposited data

How the results depend on the processing

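No value was turned to the opposite line among differences of at least 2-fold. Of 99 single-gene values under the loess curve, chromosome medians or offset, 93 shifted by less than the spread between probe sets (0.399). So did 13 of 18 when the probe sets of a gene were averaged, and 16 of 33 values of other probe sets. When all probe sets of a gene were averaged, the 33 genes gave 1 gene higher in BMSCs-osteo (without *Plk2*) and a median of 0.97, the repair genes gave 1 and 0.91, the p53 family and Ink4/Arf genes a median of -0.49, and the arrest genes 0 toward BMSCs-osteo. *Mdm2* neighbours then gave 0 and 0.23, and the other pathway genes a median of 0.0046. After chromosome medians were subtracted, the medians were 1.13 for the 33 genes, -0.0028 for the other pathway genes, 0.032 for *Cdkn2a* neighbours and -0.18 for *Mdm2* neighbours, with 0 and 1 of the last toward BMSCs-adipo and BMSCs-osteo. A filter at the 50th percentile gave medians of 1.30 (all 29 listed genes past it), 1.33 (arrest), 0.0096 (other pathway genes, with 6 toward BMSCs-osteo), -0.70 (*Cdkn2a* neighbours) and 0.19 (*Mdm2* neighbours), and 0 *Trp53* neighbours on either side. An offset of 32, which shrinks differences of dim genes, left 7 and 6 other pathway genes and 0 neighbours of *Mdm2* or *Trp53*, and *Cdkn2a* at -2.96 and *Eda2r* at 2.67. By construction, counts moved with the size rule, and all genes were not counted at 1.5-fold or 4-fold. At 1.5-fold, 4 of the 33 genes were higher in BMSCs-osteo, 3 of them p53 family and Ink4/Arf genes, all 4 repair genes were higher in BMSCs-adipo, the other pathway genes gave 20 and 19, and the neighbours of *Cdkn2a* 1 and 6, of *Mdm2* 5 and 2 and of *Trp53* 5 toward BMSCs-adipo. At 4-fold the 33 genes gave 6 and 1, apoptosis 1, arrest 1 and 0, repair 0, the other pathway genes 4 and 2, and the *Mdm2* and *Trp53* neighbours 0. The loess curve moved none of the counts or medians of these lists. No paired analysis was possible because each line has 1 array.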

Other observations

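Equal values on both arrays were found for 267 of the 14497 genes past the filter (1.84%), such as the arrest target *Sfn* (4.65 on each). Each gene of this kind adds an exact 0 to any list that holds it. Of the 33 genes, *Eda2r*, with a BMSCs-osteo value at the filter level, ranked 66 toward BMSCs-adipo. *Ddit4l* and *Dcxr* ranked 94 and 95 toward BMSCs-adipo, and *Cdkn2a* ranked 55 toward BMSCs-osteo.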
